A study of Drosophila melanogaster with 2 samples.

Results

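Aminoacyl-tRNA synthetases join each amino acid to the transfer RNA that reads its codon, and every protein made in the cell depends on them. Animals keep a set of enzymes for translation in the cytoplasm and another set, encoded by nuclear genes and imported, for translation inside mitochondria. In animals the enzymes for glycine and lysine are known to serve both compartments from 1 gene each, and a bifunctional protein, GluProRS, charges both glutamate and proline tRNAs in the cytoplasm.

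The 33 genes described here were taken by symbol alone, as an amino acid name, or 2 joined, followed by RS, from the 13945 protein-coding genes of the 6 main chromosome arms. The 15 symbols that end in -m are the mitochondrial enzymes and the other 18 are called cytoplasmic. GlnRS, GlyRS, HisRS, LysRS and ThrRS have no counterpart in -m among the 33, so the cytoplasmic group can hold genes that serve both compartments. The genes for the subunits of the cytoplasmic phenylalanine enzyme, alpha-PheRS and beta-PheRS, carry a prefix that the symbol rule does not take, and their values follow with those of related genes.

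Binding was measured by chromatin immunoprecipitation and sequencing in whole Drosophila melanogaster embryos of 0 to 18 hours. The embryos, of strain lmd-GFP, carried a transgene for an eGFP fusion of lame duck (lmd), a zinc finger transcription factor of fusion-competent myoblasts. An anti-GFP antibody was used for the precipitation, although a separate label field names lmd, and whether the embryos kept untagged lmd is not given. The series has 1 group of 2 biological replicates, so no conditions were compared, and myoblasts were mixed with all other tissues of the embryo. The conservative peak set called from both replicates held 4998 peaks on the main arms, the wider joint set 6361, replicate 1 alone 3929 and replicate 2 alone 5544. Read depth is unknown, and each peak's signal value is the authors' and was compared only within its own list.

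Summits, the highest points of peaks, were found at the start sites of 8 cytoplasmic and 2 mitochondrial enzyme genes. A summit of the conservative set lay within 500 bp of an own transcription start site (TSS) at 10 of the 33 genes, 30.3% (Wilson 95% interval 17.4 to 47.3), where the share over all protein-coding genes was 17.2%. The 8 cytoplasmic genes with such a summit were GluProRS, SerRS, IleRS, ThrRS, ArgRS, AsnRS, ValRS and AlaRS, 44.4% of 18 (24.6 to 66.3). The 2 mitochondrial genes were ProRS-m and ArgRS-m, 13.3% of 15 (3.74 to 37.9). The difference was 31.1 percentage points, with a Newcombe 95% interval of -0.481 to 55.0 that includes 0. These intervals treat genes as independent draws and cover counting error only.

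GluProRS, chr3R:23958429-23958629, minus strand: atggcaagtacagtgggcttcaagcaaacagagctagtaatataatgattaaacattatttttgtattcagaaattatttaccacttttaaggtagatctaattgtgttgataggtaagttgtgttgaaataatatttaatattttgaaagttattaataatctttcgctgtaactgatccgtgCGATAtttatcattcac

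SerRS, chr2L:3037289-3037489, minus strand: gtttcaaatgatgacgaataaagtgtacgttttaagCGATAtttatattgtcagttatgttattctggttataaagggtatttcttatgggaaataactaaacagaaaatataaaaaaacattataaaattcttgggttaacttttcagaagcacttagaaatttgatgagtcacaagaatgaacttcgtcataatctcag

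IleRS, chr3L:22288422-22288622, plus strand: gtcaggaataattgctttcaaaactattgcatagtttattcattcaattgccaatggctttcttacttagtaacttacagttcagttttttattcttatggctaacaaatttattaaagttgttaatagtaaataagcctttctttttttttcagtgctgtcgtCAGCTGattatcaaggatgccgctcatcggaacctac

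AsnRS, chr2L:19131932-19132132, minus strand: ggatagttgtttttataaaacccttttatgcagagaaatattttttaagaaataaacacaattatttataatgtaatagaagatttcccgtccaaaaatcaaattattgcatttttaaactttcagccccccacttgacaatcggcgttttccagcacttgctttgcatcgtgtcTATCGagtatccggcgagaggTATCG

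ProRS-m, chr3L:2651913-2652113, minus strand: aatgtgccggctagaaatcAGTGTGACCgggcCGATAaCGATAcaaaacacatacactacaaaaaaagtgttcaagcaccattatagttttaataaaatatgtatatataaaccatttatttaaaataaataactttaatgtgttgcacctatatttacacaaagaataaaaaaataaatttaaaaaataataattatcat

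ArgRS-m, chr3R:7886831-7887031, plus strand: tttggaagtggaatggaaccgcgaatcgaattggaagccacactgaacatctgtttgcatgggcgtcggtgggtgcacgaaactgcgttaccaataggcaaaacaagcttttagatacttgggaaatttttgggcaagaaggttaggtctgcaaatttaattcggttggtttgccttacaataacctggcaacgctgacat

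These 6 windows reach 100 bp to either side of the summit and are shown for the cytoplasmic genes of highest signal whose windows hold a searched word, and for both mitochondrial genes. They are read from the Release 6 genome (dm6) in the direction of the named gene, 5′ to 3′, with the summit at the middle base. Capitals mark matches, on either strand, to the words searched. These were TATCGATA, the element of the promoter factor DREF, CGATA, the core that DREF shares with the insulator protein BEAF-32, GGTCACACT of the promoter factor M1BP, and the E-boxes CACGTG, of Myc type, and also CAGCTG. The Gli-type core CCACCCA, the GAGA factor word GAGAGAG and the NRF1-type word GCATGCGC were searched as well. The ArgRS-m window holds none of them. The sequences are rich in A and T: the median GC content of the 10 member windows was 28.9%, ranging from 24.9% at ProRS-m to 44.8% at ArgRS-m, and the median over all 1910 promoter summits was 33.8%.

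GluProRS had the highest signal of the 10 start-site peaks. Its peak, at chr3R:23958344-23958675, had a signal of 791 and rank 200 of 4998, and its summit lay 138 bp upstream of the GluProRS start and 122 bp from that of AP-1sigma, which encodes a clathrin adaptor subunit. In the unthresholded ranked lists the same site had a signal of 301 and rank 248 of 112073 peaks in replicate 1, and a signal of 483 and rank 202 of 89892 in replicate 2. Both replicates thus placed it near the top of their lists, in the first 0.221% and 0.225%.

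SerRS, which charges serine tRNA, was second, with a peak at chr2L:3037225-3037557 of signal 731 and rank 232. The summit lay 14 bp inside the gene in the 5′ UTR, the only one of the 10 downstream of its nearest own start, and the start of CG17260 on the other strand was 8 bp from that of SerRS. Replicate 1 gave it a signal of 284 and rank 288, and replicate 2 a signal of 447 and rank 238. The window printed above therefore contains the starts of both genes, with the nearest SerRS start at position 87.

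IleRS and ThrRS, the isoleucine and threonine enzymes, followed. The IleRS peak (chr3L:22288388-22288629) had a signal of 453 and rank 568, and its summit lay 143 bp upstream of IleRS and 327 bp from Hem, a gene of the SCAR actin complex. Its signal was 223 in replicate 1 and 234 in replicate 2, with ranks 460 and 758. The ThrRS peak (chr2L:12103390-12103702) had a signal of 425 and rank 650, with its summit 222 bp upstream of ThrRS and 244 bp from Patsas. Its signal was 149 in replicate 1 and 268 in replicate 2, with ranks 911 and 599. The highest 4 peaks all belonged to cytoplasmic enzymes and all were in the thresholded set of each replicate.

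The other 6 start-site peaks had signals of 199 or less and included both mitochondrial ones. ArgRS, the arginine enzyme (signal 199, rank 1914, chrX:15844111-15844474), had a signal of 57.5 in replicate 1 and 130.2 in replicate 2. AsnRS, the asparagine enzyme (signal 175, rank 2233, chr2L:19131850-19132213), had 76.0 and 93.2. Both were in each replicate's thresholded set, and their summits lay 148 and 78 bp upstream of the gene. ProRS-m, the mitochondrial proline enzyme (signal 139, rank 2918, chr3L:2651831-2652194), had 55.4 in replicate 1 and 80.4 in replicate 2, and only replicate 2 kept it in its thresholded set. ArgRS-m, the mitochondrial arginine enzyme (signal 105, rank 3713, chr3R:7886749-7887112), had 44.7 and 67.4 and was kept by both. The mitochondrial signals thus lay below the 6 highest cytoplasmic ones in each replicate.

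ValRS and AlaRS, the valine and alanine enzymes, had the weakest start-site peaks. ValRS (signal 98.3, rank 3898, chr2R:13198256-13198619) lay just inside the distance limit, 412 bp upstream of its own start and 101 bp from that of Kdm4B, which encodes a histone demethylase. Its ranked-list signals were 39.0 and 70.6 in replicates 1 and 2, and only replicate 2 kept it. AlaRS (signal 72.2, rank 4684, chr2L:8381708-8382071) had 39.6 and 35.4 and was in neither replicate's thresholded set. Of the 10 peaks, 7 overlapped by at least 1 bp the set of replicate 1 and 9 that of replicate 2, and 7 were in both. For all promoter peaks of the conservative set these shares were 73.4% for replicate 1 and 92.0% for replicate 2.

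**Figure D1:**
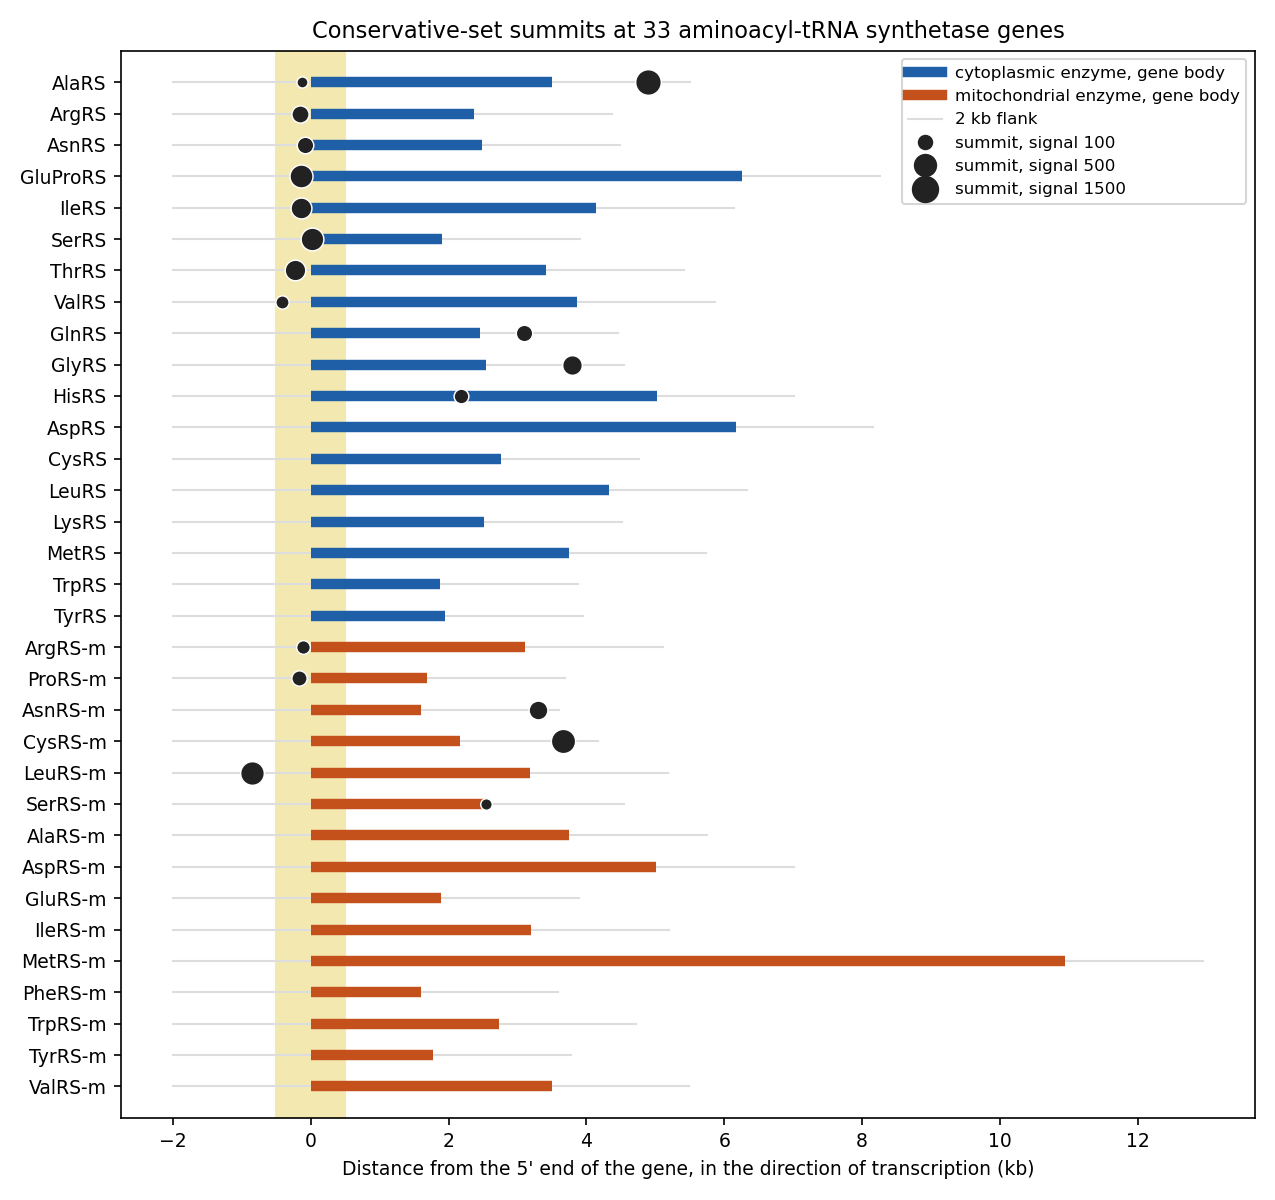
Summits of the conservative set (dots, area growing with the log of the signal) along the 33 genes, with distance from the 5′ end of the gene in kb on the horizontal axis, gene bodies as bars coloured by compartment and the 2 kb flanks as thin lines. The shaded band reaches 500 bp to each side of the 5′ end: 8 of 18 cytoplasmic and 2 of 15 mitochondrial genes have a dot in it, and most of the other dots lie past the 3′ end.

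As a group the 10 peaks were of ordinary strength for a promoter in the conservative set. Their median signal was 187, while the median was 197 over all promoter peaks and 160.0 over all peaks, and 46.8% of promoter peaks lay below the members' median. Their median width, 364 bp, equalled that of all peaks. The median distance to the own start was 140.5 bp, and 9 of the 10 summits lay upstream of it. The synthetase start-site peaks of each replicate's own thresholded set, 9 in replicate 1 and 10 in replicate 2, were also ranked. Below their median lay 34.2% of 1420 promoter peaks in replicate 1 and 55.6% of 2503 in replicate 2. The 2 sets hold partly different synthetase peaks, so these values do not compare the strength of the same sites.

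Nearly all of these start-site summits were shared with a neighbouring gene. At 9 of the 10 a start site of another protein-coding gene on the other strand also lay within 500 bp, and AlaRS was the exception. Of all 1910 promoter summits, 706 (37.0%) had starts of more than 1 gene in reach. That share counts each summit once, whereas the synthetase summits were reached through genes, so it is not a like-for-like comparison. Counted by gene, 1536 of all 2395 genes with a start-site summit had a protein-coding start on the opposite strand within 1000 bp of an own start. Among the synthetases with a start-site summit it was 9 of the 10. The neighbours were AP-1sigma, CG17260, Hem, Patsas, CG8578 at ArgRS, the dynactin subunit gene DCTN6-p27 at AsnRS, Kdm4B, CG17816 at ArgRS-m, and both CG42304 and the snurportin gene Snup at ProRS-m. The starts of the pairs were 8 to 513 bp apart. In 8 of the 9 pairs, all except SerRS and CG17260, the summit lay between the diverging starts, 88.9%, which is near the 84.0% of all 676 summits with starts on both strands in reach. At 7 of the 10 the synthetase start was the nearest start of any gene, and at GluProRS, ValRS and ProRS-m the neighbour was nearer. Proximity does not show which gene of a pair a site regulates.

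The arrangement of start sites differed between the compartments. A protein-coding start on the opposite strand lay within 1000 bp of an own start at 16 of 18 cytoplasmic genes (88.9%) and 7 of 15 mitochondrial genes (46.7%), and at 36.9% of all protein-coding genes. Over all genes, 29.9% of those with such a neighbour had a start-site summit, and 9.76% of those without. Among synthetase genes with such a neighbour, 7 of 16 cytoplasmic (43.8%, Wilson interval 23.1 to 66.8) and 2 of 7 mitochondrial ones (28.6%, 8.22 to 64.1) had a summit. The difference within this arrangement was 15.2 percentage points (-25.9 to 45.9). Without such a neighbour, AlaRS had a summit and CysRS did not, and 0 of 8 mitochondrial genes had one, which allows a share of up to 32.4%.

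**Figure D2:**
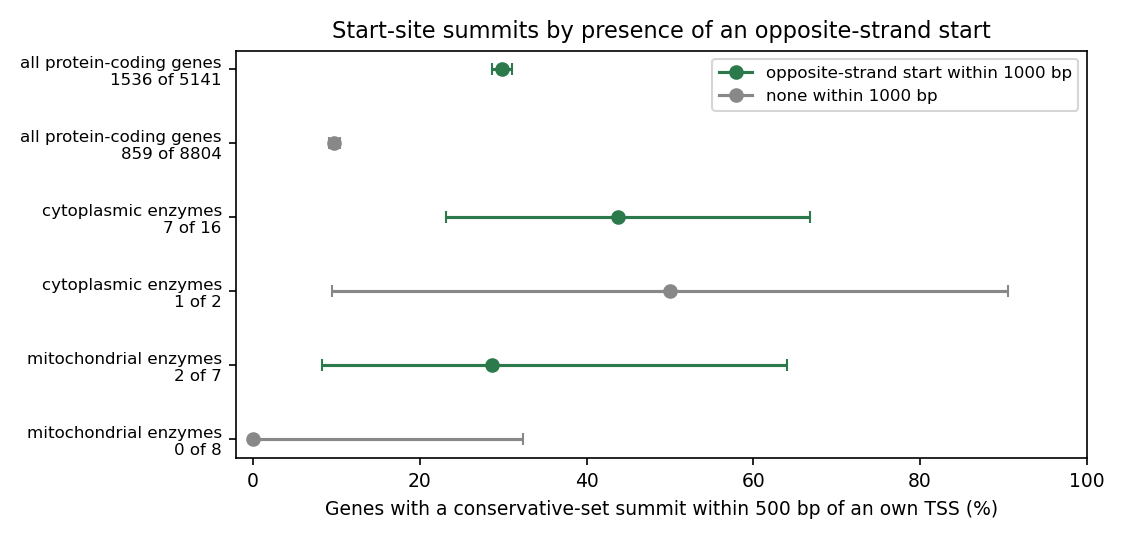
Percentage of genes with a conservative-set summit within 500 bp of an own TSS (points, with Wilson 95% intervals as bars), separately for genes with (green) and without (grey) a protein-coding start on the opposite strand within 1000 bp. The mitochondrial enzymes with such a neighbour, at 28.6%, lie near all genes of that arrangement, at 29.9%, and the intervals of both enzyme groups are wide.

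When the whole gene with 2 kb on each side was considered, 17 of the 33 genes held a summit, 51.5% (Wilson interval 35.2 to 67.5), where the share over all protein-coding genes was 33.5%. The share was 61.1% (11 of 18) for the cytoplasmic and 40% (6 of 15) for the mitochondrial enzymes, a difference of 21.1 percentage points (Newcombe interval -12.0 to 48.5). Synthetase genes were longer than the median gene, at 2760.0 bp over the 33 and 2166 bp over all. Without the flanks, a summit lay in the gene body at 9.09% of the 33 genes and 12.5% of all genes, so the higher share rests on the flanks.

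In 4 of the 7 genes with a summit in the locus and none at an own start, the summit lay within 500 bp of another gene's start. At CysRS-m, the mitochondrial cysteine enzyme, a strong peak (signal 1129, rank 95) lay 1497 bp past the gene, between the starts of CG13016 and CG13018, and it had signals of 383 and 742 in replicates 1 and 2. AsnRS-m had a peak of signal 282 at 138 bp from NiPp1 and 164 bp from CG6805, with 99.4 and 181 in the replicates. GlnRS, the glutamine enzyme, had a peak of signal 173 at 116 bp from CG11858 and 127 bp from the sphingolipid gene Kdsr, with 73.6 and 117. In SerRS-m a weak peak (signal 76.7, rank 4586) lay in the 3′ UTR, 52 bp from the start of Nagk, an N-acetylglucosamine kinase gene, and it was in neither replicate's thresholded set.

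LeuRS-m, GlyRS and HisRS differed in that no protein-coding start lay within 500 bp of their summits. The LeuRS-m peak (signal 954, rank 134) was strong in both replicates, with signals of 402 and 548 and ranks 147 and 160. Its summit lay 857 bp upstream of LeuRS-m, just outside the limit, and 691 bp inside the neighbouring dynein heavy chain gene Dhc64C. With a limit of 1000 bp it would be the 11th gene with a start-site summit and the 3rd mitochondrial one. At that limit 20.3% of all protein-coding genes had a start-site summit. The mitochondrial share, 3 of 15, was close to this, and the cytoplasmic share, 8 of 18 (44.4%), stayed above it. The GlyRS peak (signal 341, rank 901) lay 1248 bp past the gene and 799 bp from the start of Ctps, the CTP synthase gene, with 177 and 158 in the replicates. The HisRS peak (signal 125, rank 3199) lay in the coding sequence, 2183 bp from the gene's start, a position where an annotated transcript of the LIM-domain gene Bx also begins. Its signals were 47.3 and 74.9, and only replicate 2 kept it.

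AlaRS held a second, far stronger summit in its locus. That peak (signal 1692, rank 41) lay past the 3′ end of AlaRS, 4711 bp from its nearest start, and adjoined CG13390 at 80 bp and CG17294 at 158 bp. Its signals of 634 and 1068 ranked 51st and 41st in replicates 1 and 2. It was the highest signal in any synthetase locus, and the start-site peak of the same gene had 72.2.

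The remaining 16 genes, 7 cytoplasmic and 9 mitochondrial, held no summit of the conservative set. The cytoplasmic ones were AspRS, CysRS, LeuRS, LysRS, MetRS, TrpRS and TyrRS, and the mitochondrial ones were AlaRS-m, AspRS-m, GluRS-m, IleRS-m, MetRS-m, PheRS-m, TrpRS-m, TyrRS-m and ValRS-m. The nearest summit lay 2255 bp (IleRS-m) to 24297 bp (TyrRS) from the gene, with a median of 6517 bp. TyrRS and GluRS-m lie side by side on the same strand of 3L, and both were over 20 kb from any summit.

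AspRS and MetRS, the aspartate and methionine enzymes, were each found in a single replicate. AspRS had 2 start-site peaks in the thresholded set of replicate 1, the stronger with a signal of 73.9 and rank 2416 in the ranked list, and no peak in the ranked list of replicate 2. MetRS was in the set of replicate 2 (signal 65.3, rank 3811) and had a signal of 27.1 and rank 13162 in replicate 1. The wider joint set placed a summit at both, and 12 of the 33 genes then had a start-site summit (36.4%, against 21.4% of all genes). In replicate 1 alone 8 genes had one (24.2%, against 13.3%), and in replicate 2 alone 10 (30.3%, against 22.6%).

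The compartments stood in the same order in each peak set. Cytoplasmic shares were 55.6% in the wider set, 38.9% in replicate 1 and 44.4% in replicate 2, and mitochondrial shares were 13.3%, 6.67% and 13.3%. The difference was 42.2 percentage points (Newcombe interval 9.37 to 64.3) in the wider set and 32.2 (2.54 to 55.4) in replicate 1. In replicate 2 it was 31.1 (-0.481 to 55.0), as in the conservative set. The wider-set count includes AspRS and MetRS, and the replicate 1 count AspRS, each lacking from the other replicate's thresholded set. These intervals again treat genes as independent draws. The peak sets were called from the same 2 libraries and are not independent of each other.

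**Figure D3:**
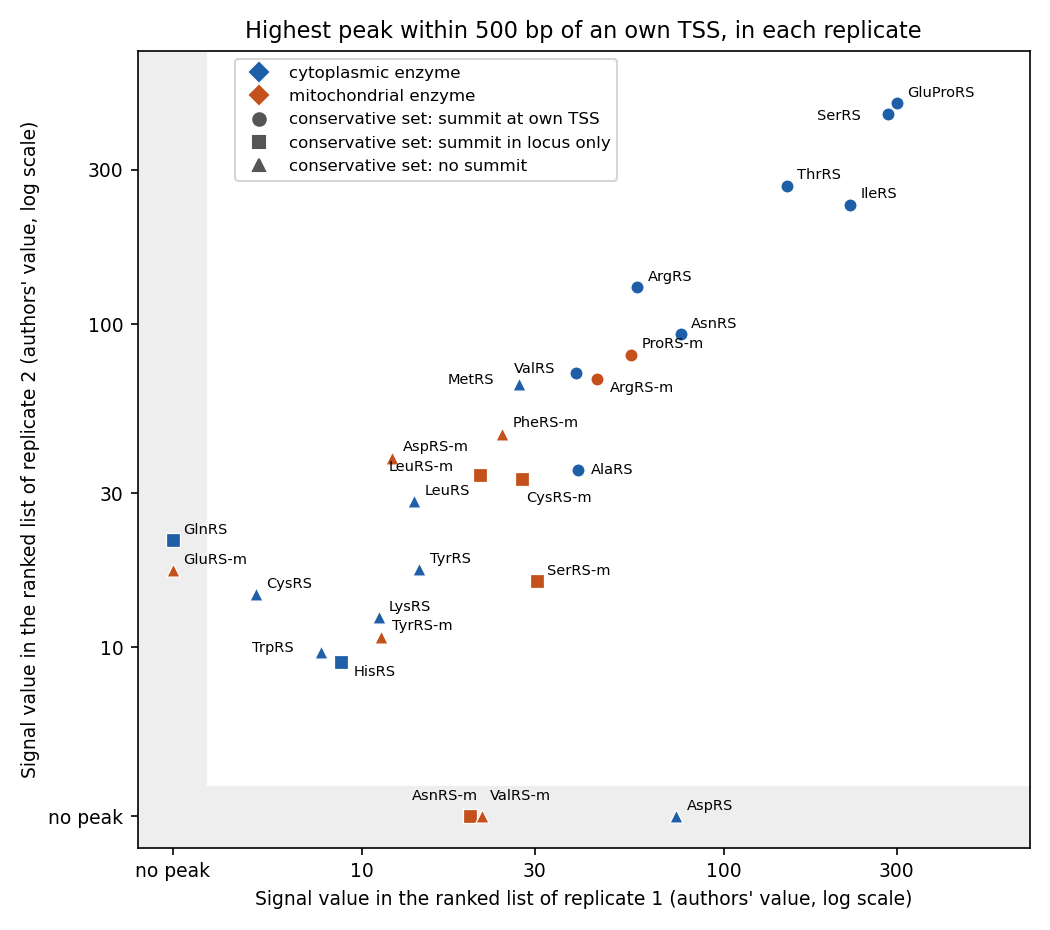
Signal of the highest ranked-list peak within 500 bp of an own TSS in replicate 1 (horizontal) and replicate 2 (vertical), both on log scales of the authors' values, for the 28 genes with such a peak in at least 1 replicate. Circles mark genes with a start-site summit in the conservative set, squares a summit elsewhere in the locus and triangles none, and the grey margins hold genes with no peak in that replicate: the 10 circles span 39.0 to 301 in replicate 1 and 35.4 to 483 in replicate 2, MetRS (27.1 and 65.3) lies among the weaker ones in replicate 2, and AspRS has 73.9 in replicate 1 and no peak in replicate 2.

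The unthresholded ranked lists, which include the peaks above the threshold, held a peak at most start sites. A peak of the ranked list lay within 500 bp of an own start at 26 of the 33 genes in replicate 1 (78.8%, against 66.7% of all protein-coding genes) and 25 in replicate 2 (75.8%, against 69.2%). Among cytoplasmic enzymes it was 16 of 18 in each replicate, and among mitochondrial ones 10 and 9 of 15. The 10 genes of the conservative set stood at a median of the first 2.49% of the list in replicate 1 and 2.44% in replicate 2. For the 16 genes with no summit in the conservative set, 11 had a ranked peak in replicate 1 at a median of 49.4% and 10 in replicate 2 at a median of 33%. The order of these medians follows from sorting the genes by the conservative set and is no separate result. AlaRS-m, GlyRS, IleRS-m, MetRS-m and TrpRS-m had no start-site peak in either ranked list. With depth unknown, the lists give no lower limit of detection for these genes.

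Other genes of translation gave shares on both sides of the synthetases. Genes for cytoplasmic ribosomal proteins had a start-site summit at 51 of 86 (59.3%, Wilson interval 48.7 to 69.1), those for mitochondrial ribosomal proteins at 21 of 73 (28.8%, 19.7 to 40) and translation factor genes at 12 of 54 (22.2%, 13.2 to 34.9). The 44.4% of cytoplasmic synthetases lay below the cytoplasmic ribosomal share with overlapping intervals, and the 13.3% of mitochondrial synthetases below the mitochondrial ribosomal share, again with overlap. In both machineries the cytoplasmic genes had the higher share.

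**Figure D4:**
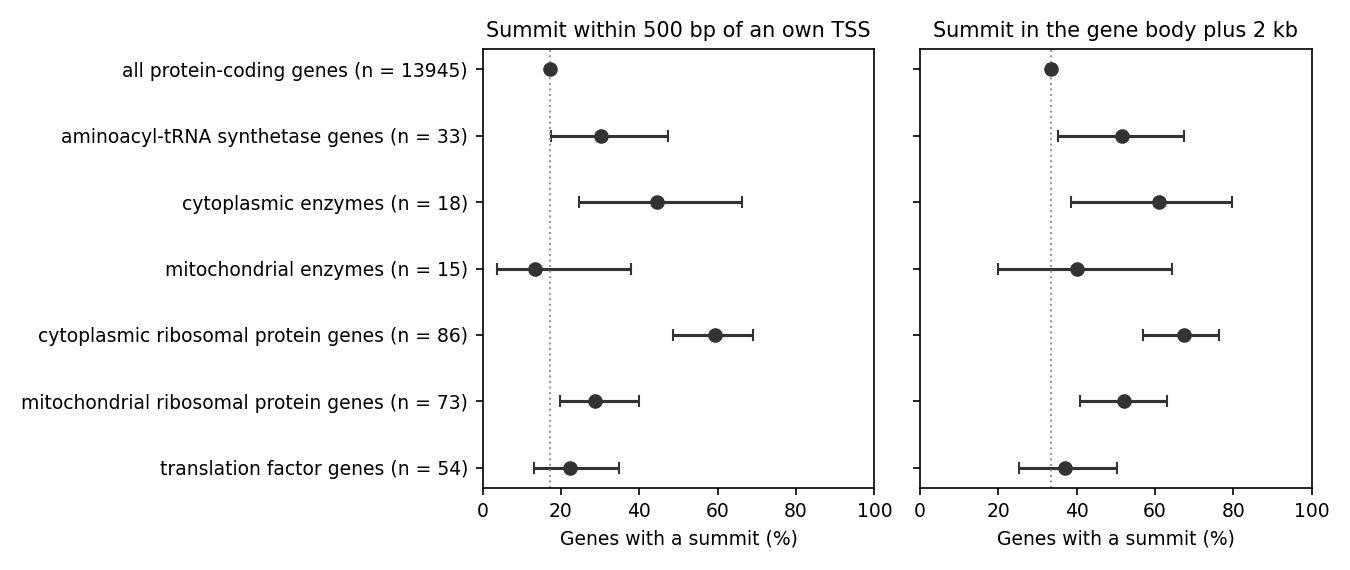
Percentage of genes with a summit of the conservative set within 500 bp of an own TSS (left) and in the gene body plus 2 kb (right), with Wilson 95% intervals, for all protein-coding genes (dotted line), the synthetases and their 2 compartments, and 3 other lists of translation genes. Cytoplasmic enzymes lie at 44.4% and 61.1% and mitochondrial enzymes at 13.3% and 40%, with overlapping intervals.

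Of 9 further genes of tRNA charging, 3 had a start-site summit and 4 had one in the locus, where the shares over all protein-coding genes were 17.2% and 33.5%. At each of the 3 genes, the thresholded set of 1 replicate only had a summit within 500 bp of an own start. It was replicate 1 for GatC and replicate 2 for both GatA and AIMP1. Overlap of replicate peaks with these 3 conservative peaks was not examined. GatA and GatC encode subunits of the amidotransferase that makes glutaminyl-tRNA in mitochondria. GatA had a peak of signal 310.1 at 83 bp from its start, shared with the proline synthesis gene P5cr, and GatC one of 110.2 at 58 bp, shared with PolG2 and Polr2C. AIMP1, a scaffold of the multi-enzyme complex of cytoplasmic synthetases, had one of 75.5 at 13 bp, shared with PAN2. For alpha-PheRS the only summit (261) lay at the promoter of CG17982, 1858 bp from its own start. AIMP2, AIMP3, GatB, the deacylase gene Dtd and beta-PheRS had none, although replicate 2 alone placed a summit at a beta-PheRS start.

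Among the words searched around the 10 summits, CGATA, the shortest of them, was the most frequent, as it was over all promoter summits. It was within 100 bp of the summit at 5 of the 10 genes (GluProRS, SerRS, AsnRS, ValRS and ProRS-m), and at 34.7% of all promoter summits. Within 50 bp it was at 0 of 10 (17.7% of promoter summits), and within 250 bp at 9 of 10 (59.1%), ThrRS being the exception. The full DREF word TATCGATA, which contains CGATA, was at 0 of 10 within 100 bp (5.50% of promoter summits) and at AlaRS, IleRS and ArgRS within 250 bp (30%, against 11.1%). GGTCACACT was within 100 bp at ProRS-m alone (2.04% of promoter summits). CAGCTG was within 100 bp at IleRS alone (10.2% of promoter summits) and within 250 bp at 6 of 10 (29.8%). The E-box of Myc type, the Gli-type core and the words of GAGA factor and NRF1 were found in 0 of the 10 windows within 100 bp, and at 2.41%, 2.04%, 3.25% and 0.366% of promoter summits. A missing word says only that these letters are absent from the window.

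The E-box CAGCTG, a class of site bound by basic helix-loop-helix factors, was found from 250 bp before to 50 bp after the 5′ end at 16 of the 33 genes, 48.5% (Wilson interval 32.5 to 64.8), and in the same window of 17.7% of all protein-coding genes. The share was 50% (9 of 18) for cytoplasmic and 46.7% (7 of 15) for mitochondrial enzymes, and 5 of 10 genes with a start-site summit and 11 of 23 without one held it. Over all genes it was 23.6% with a start-site summit and 16.5% without. Genes for mitochondrial ribosomal proteins held it at 54.8% (43.4 to 65.7), those for cytoplasmic ribosomal proteins at 8.14% (4.0 to 15.9) and translation factor genes at 7.41% (2.92 to 17.6). Of the other 7 words in the same window, CGATA was at 63.6% of the 33 genes and 47.5% of all genes, TATCGATA at 15.2% and 9.37%, and GGTCACACT at 12.1% and 6.05%. The Myc-type E-box was at 6.06% and 4.24%, the GAGA factor word at 3.03% and 5.87%, and the Gli-type core and NRF1-type word at 0 of 33 genes, against 2.93% and 1.05% of all genes. CAGCTG reads the same on both strands, and of its 20 matches 13 lay upstream of the 5′ end and 7 downstream. Of the 20, 17 lay within 100 bp of the 5′ end, as every downstream match must because the window ends at 50 bp. The same share was not computed over all genes.

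TyrRS, chr3L:16419325-16419364, minus strand: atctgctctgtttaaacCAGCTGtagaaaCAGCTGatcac

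IleRS, chr3L:22288569-22288608, plus strand: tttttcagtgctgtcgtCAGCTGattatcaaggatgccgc

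ArgRS, chrX:15844170-15844209, minus strand: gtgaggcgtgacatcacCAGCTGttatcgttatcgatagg

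AlaRS-m, chr3L:5146013-5146052, plus strand: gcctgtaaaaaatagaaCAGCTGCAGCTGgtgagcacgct

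GluRS-m, chr3L:16417148-16417187, minus strand: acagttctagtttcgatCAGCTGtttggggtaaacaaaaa

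LeuRS-m, chr3L:4825846-4825885, plus strand: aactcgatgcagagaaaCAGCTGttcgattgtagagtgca

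TrpRS-m, chr3L:17849683-17849722, plus strand: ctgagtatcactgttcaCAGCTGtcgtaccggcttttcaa

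MetRS-m, chr3R:14259974-14260013, minus strand: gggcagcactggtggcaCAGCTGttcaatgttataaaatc

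These stretches of 40 bases show the word, in capitals, with 17 bases on each side in the direction of the gene (Release 6, dm6), from genes of both compartments with and without a start-site summit. At TyrRS and AlaRS-m a second copy falls within the stretch, and in AlaRS-m the copies adjoin. Of the 8 genes shown, IleRS and ArgRS had a start-site summit. The search was added after the summit windows had been seen, and no test was applied to it. CAGCTG was singled out from the 8 words after its values were seen.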

How the data were processed

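Peak lists from 2 lmd-eGFP ChIP-seq replicates were used, in dm6 coordinates per the labels. Chromatin had been sonicated to 200 to 800 bp, per the labels. Signal values were deposited by the authors, and the sources used here do not name their normalization, the aligner, the peak caller or read depth. Per the deposited listing, replicate lists came from that replicate and joint sets from the pair, each with a control.

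Summits were placed against annotation release 115 (Release 6 genome), whose arm lengths contain every peak. A start-site summit lay within 500 bp of any annotated own TSS, and a locus was the gene body with 2 kb on each side. Replicate peaks matched by at least 1 bp. A gene's replicate signal is that of its highest ranked-list peak within 500 bp of an own TSS, or, for a named conservative peak, of the ranked-list peak overlapping it. Counts were made with Python 3.11.15, pandas 2.3.3 and scipy 1.17.1, and the placing was tested on simulated data. Shares carry Wilson 95% intervals, which cover counting error only. With 1 group and 2 samples no p-value was computed. The members and lists were chosen with earlier results of these data known. All members are accounted for, and neighbours named are those with a TSS within 500 bp of a summit or, failing that, the nearest. The other lists were taken by symbol (RpL, RpS, RpLP and sta; mRpL and mRpS; eIF, eEF and eRF). SLIMP and SepSecS, also intended as related genes, were not used here. The comparison by opposite-strand starts and the start-window words were added after the first values were seen.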

Additional observations from a re-analysis of the deposited data

How the results depend on the processing

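Of 65 alternative values, 53 stayed within the interval or spread of the reported one or, for the replicate overlap count, near it. Most of these intervals rest on 10 to 33 genes and are wide, so staying inside them is a weak check. The spread used for the median signal came from the replicate values being judged. The share of the 33 genes with a start-site summit ranged from 18.2% in peaks at or above the median signal to 36.4% in the wider set. The shares over all genes in these sets were 11.7% and 21.4%. Without replicate 2 the share was 24.2% (13.3% of all genes), and without replicate 1 it was 30.3% (22.6%). In every peak set and at every distance tried, the cytoplasmic share was above the mitochondrial one and the share of all 33 above that of all genes. In peaks at or above the median signal the mitochondrial share fell to 0.0% (0 of 15), where that of all genes was 11.7%. The locus-based shares depended on the flank. With a flank of 0 bp they were 9.09% for all members, 11.1% for cytoplasmic and 6.67% for mitochondrial enzymes, below the 12.5% of all genes; with 5000 bp they were 69.7% for all members and 83.3% for cytoplasmic enzymes, against 47.4% of all genes. Word counts followed the window: within 50 bp of the summit CGATA, GGTCACACT and CAGCTG were each at 0.0% of the 10 genes, and within 250 bp TATCGATA was at 30%, CGATA at 90% and CAGCTG at 60%, where promoter summits gave 11.1%, 59.1% and 29.8%. No paired analysis was possible because the series has 1 group. Depth, which is not given, limits which weak sites could be called.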
